A study of Mus musculus with 6 samples.

Results

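The genes described here encode Polycomb proteins, readers of methylated histones, and enzymes that add methyl groups to histones or remove them. They were taken from the deposited table by name: protein-coding genes of the Kdm1 to Kdm8, Kmt2, Kmt5, Setd, Prmt, Suv39h, Ehmt, Nsd, Ezh, Cbx1 to Cbx8, Pcgf and Phc families, together with Eed, Suz12, Jarid2, Mtf2, Phf19, Ring1 and Rnf2, leaving out genes on the Y chromosome. This gave 75 of 54532 genes. The rule reads names, chromosome and biotype alone. The RNA came from mouse embryonic stem cells labelled as haploid, that is with 1 set of chromosomes, and ploidy was not measured in these libraries. All cells are given as strain 129SV. The 3 libraries called WT here are labelled as wild type haploid cells. The 3 libraries called p53-deficient here have the genotype P53 - haploid and titles beginning P53ki, while the design text speaks of a p53 knockout. The labels do not say how p53 was lost, whether each genotype is 1 clone, or whether libraries of a group came from separate cultures. The p-values therefore measure only how far these libraries spread, which may be technical, and clone or culture cannot be told apart from genotype.

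Polycomb repressive complex 2 (PRC2) methylates lysine 27 of histone H3 (H3K27) through EZH1 or EZH2, which work only together with EED and SUZ12. Polycomb repressive complex 1 (PRC1) ubiquitinates histone H2A through RING1 or RNF2, each paired with a PCGF protein, and its canonical forms hold a CBX protein that binds methylated H3K27. In embryonic stem cells both complexes keep developmental genes silent, H3K4 methylation by COMPASS complexes marks active promoters and enhancers, and H3K9 methylation by SETDB1 silences retroviral elements.

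Depth, as reads assigned to genes, was 17065841 to 20331905 per WT library and 11536412 to 21218976 per p53-deficient library. Levels are in FPKM, which relates the fragments of a gene to its length and to library size. Trp53, which encodes p53, held 64.5, 69.8 and 69.6 FPKM in WT and 9.71, 9.71 and 9.98 FPKM in p53-deficient cells. Markers of other cell types that such cultures can hold also differed between the groups. All 27 tested fibroblast markers of 30 listed were lower in p53-deficient libraries, with a summed level of 1747 to 1774 FPKM in WT and 545 to 563 FPKM in p53-deficient libraries, and none of the tested ones was at 0. The 4 listed Y-linked genes had 330 to 423 reads per WT library and 28 to 42 reads per p53-deficient library. Primitive endoderm markers (6 of 11 tested, 4 lower and 2 higher) summed to 76.4 to 76.8 and 22.0 to 23.3 FPKM, and trophoblast markers (6 of 8 tested, 5 higher) to 59.3 to 62.4 and 90.6 to 92.7 FPKM. In WT most of the primitive endoderm sum lay in Col4a1 and Col4a2, with means of 34.6 and 30.6 FPKM. In p53-deficient libraries these were 6.03 and 4.17 FPKM, so the fall of the sum is mainly theirs. Dab2 and Gata6 also fell, while Lama1 and Amn rose. Most of the trophoblast sum lay in Krt8, Tfap2c and Krt18, with WT means of 20.6, 20.3 and 14.9 FPKM. In p53-deficient libraries these were 33.9, 23.5 and 27.6 FPKM, so the trophoblast sum mainly follows these genes. Eomes and Cdx2 also rose, Gata3 was not called, and Hand1 and Elf5 were too low to test. The 10 pluripotency markers were all detected, 5 higher and 4 lower. Their sum, in FPKM, was 3445 to 3506 per WT library, against 2487 to 2556 in the p53-deficient ones. Most of that fall is due to Dppa5a alone, with a WT mean of 2007 and a p53-deficient mean of 1075 FPKM. Nanog, Zfp42 and Tdgf1 were also lower, while Pou5f1, Esrrb, Klf4, Tfcp2l1 and Sall4 were higher. The sum therefore mainly follows Dppa5a and does not measure the content of pluripotent cells. Whether a difference in culture makeup lies behind these marker levels, or had a part in the values below, was not tested. In bulk RNA, fewer cells of a type and less RNA per cell cannot be told apart.

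Of the 75 genes, 74 reached the mean of 0.5 FPKM needed for testing. The other, Kdm4d, an H3K9 demethylase, had 0 to 7 reads per library. The genes as a group shifted slightly upward in p53-deficient cells: 44 of 74 (59.5%) were higher and 15 (20.3%) lower at a limma adjusted p under 0.05. Together 59 (79.7%) were called, against 66.5% of all 15144 genes tested, of which 35.3% were higher and 31.3% lower. Of the 12248 protein-coding genes tested, a closer background, 73.0% were called, 38.3% higher and 34.7% lower. Expression level matters too. At a mean of at least 5 FPKM, 37 of 54 of the genes were higher and 9 lower, beside 47.4% and 29.3% of all 7752 genes. The median log2 fold changes were then 0.21 and 0.097. The groups did not overlap for 66 of the 74 (89.2%), against 71.4% of all tested genes and 78.5% of protein-coding ones. The changes were mostly small. The median log2 fold change of FPKM + 1 was 0.18, against 0.028 over all tested genes, with a range from -0.99 to 0.94. A change of at least 0.5 on that scale was called for 12 of the 74, 8 higher and 4 lower, and for 27.5% of all tested genes. The higher-to-lower split depends on how libraries are scaled. Scaling by the median log2 ratio of well-expressed genes gave 34 higher and 20 lower, a higher share of the calls of 63.0% in place of 74.6%, and moved the median of all genes to -0.049. Scaling the same way, 28.1% of all genes were higher and 37.1% lower. For 44 of the 59 called genes, 32 higher and 12 lower, the call held under each of the 14 alternative settings in which the gene was tested, and these include the 12 with the largest changes.

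**Figure D1:**
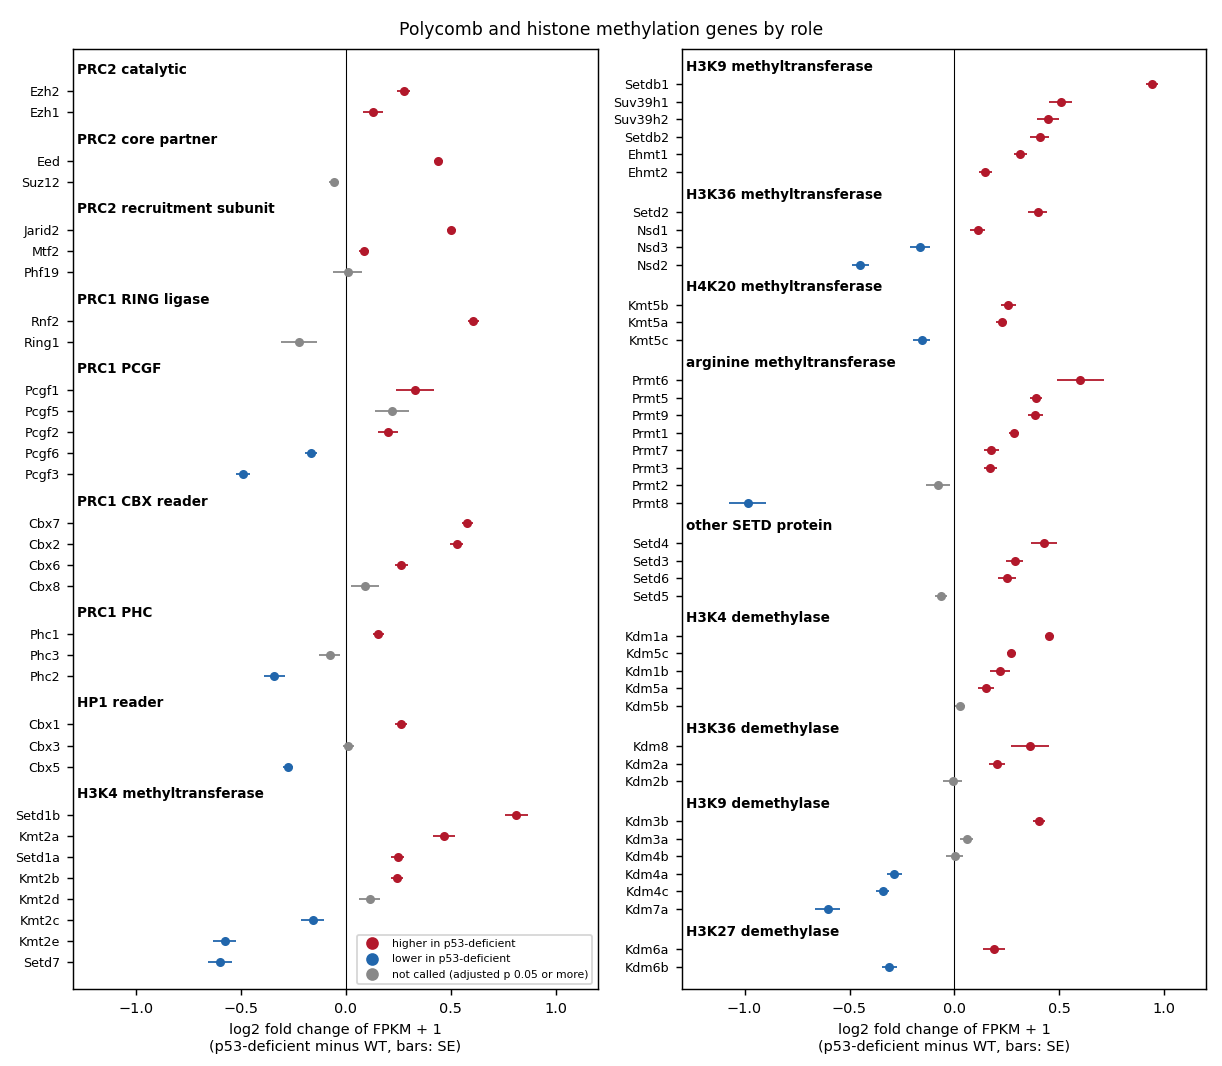
Log2 fold change of FPKM + 1 between p53-deficient and WT cells (horizontal axis) for 73 of the 74 tested genes, grouped by role. Points are the limma estimates, bars their SE, red and blue mark genes called higher and lower at an adjusted p under 0.05, and grey marks genes that were not called. All 6 H3K9 methyltransferases lie to the right of 0, with Setdb1 farthest at 0.94, and Prmt8 lies farthest to the left at -0.99.

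Promoters of the 3 PRC2 core genes, of the gene with the largest rise (Setdb1) and of the gene with the largest fall (Prmt8) are shown to let the region around their start sites be compared; they were picked after the values were seen. Each runs 5′ to 3′ on the gene's strand from 250 bases before to 50 bases after the start site, from RefSeq on build GRCm38.p6. Capitals mark the motifs searched on both strands: CCAAT, the cell cycle homology region TTTGAA (CHR), and the E2F forms TTTCCCGC, TTTCGCGC, TTTGCCGC and TTTGGCGC. Positions given after the sequences are relative to the start site.
Ezh2, chr6:47594981-47595280, minus strand: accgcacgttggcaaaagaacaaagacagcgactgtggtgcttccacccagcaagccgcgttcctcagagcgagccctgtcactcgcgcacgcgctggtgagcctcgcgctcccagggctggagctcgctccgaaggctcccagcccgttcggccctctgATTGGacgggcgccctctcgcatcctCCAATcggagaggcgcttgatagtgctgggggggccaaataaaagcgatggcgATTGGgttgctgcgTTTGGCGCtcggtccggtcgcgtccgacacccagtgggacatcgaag
Eed, chr7:89980927-89981226, minus strand: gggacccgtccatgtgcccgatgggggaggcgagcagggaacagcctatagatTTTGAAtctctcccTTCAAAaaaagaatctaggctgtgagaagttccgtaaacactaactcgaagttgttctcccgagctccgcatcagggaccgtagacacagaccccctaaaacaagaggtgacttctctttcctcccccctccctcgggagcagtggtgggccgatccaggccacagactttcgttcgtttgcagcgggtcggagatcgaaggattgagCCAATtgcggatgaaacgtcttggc
Suz12, chr11:79992856-79993155, plus strand: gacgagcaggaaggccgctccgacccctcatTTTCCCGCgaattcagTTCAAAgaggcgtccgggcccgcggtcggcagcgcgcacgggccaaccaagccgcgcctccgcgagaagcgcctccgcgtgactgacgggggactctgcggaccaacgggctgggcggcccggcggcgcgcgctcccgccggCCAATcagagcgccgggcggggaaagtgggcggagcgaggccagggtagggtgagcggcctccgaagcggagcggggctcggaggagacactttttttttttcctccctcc
Setdb1, chr3:95357153-95357452, minus strand: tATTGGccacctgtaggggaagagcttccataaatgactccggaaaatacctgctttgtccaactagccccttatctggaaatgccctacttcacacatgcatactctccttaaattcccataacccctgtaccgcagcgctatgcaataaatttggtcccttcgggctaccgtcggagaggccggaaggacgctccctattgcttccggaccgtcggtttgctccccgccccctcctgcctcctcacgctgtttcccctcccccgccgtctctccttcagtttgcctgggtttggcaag
Prmt8, chr6:127769110-127769409, minus strand: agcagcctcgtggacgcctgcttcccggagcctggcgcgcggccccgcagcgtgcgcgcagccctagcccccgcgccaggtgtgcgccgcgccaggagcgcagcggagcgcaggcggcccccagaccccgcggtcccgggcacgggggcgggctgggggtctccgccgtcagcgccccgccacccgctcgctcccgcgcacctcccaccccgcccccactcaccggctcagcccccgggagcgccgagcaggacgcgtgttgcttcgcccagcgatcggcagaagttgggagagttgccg

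The Ezh2 window held 3 CCAAT matches, at -90, -64 and -11, and an E2F match at 4. The Eed window held CHR matches at -197 and -183 and a CCAAT match at 26. The Suz12 window held an E2F match at -219, a CHR match at -203 and a CCAAT match at -61. In the Setdb1 window the 1 match was a CCAAT at -249, and the Prmt8 window held none of these motifs. CpG dinucleotides numbered 31, 17, 41, 15 and 43 in the windows of Ezh2, Eed, Suz12, Setdb1 and Prmt8.

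Windows were found for 61 of the 75 genes. CpG-rich promoters prevailed among them: the median ratio of observed to expected CpG was 0.833, against 0.384 over all 32851 windows, and it was at least 0.6 in 93.4% and 35.8%. All windows were taken without regard to gene type or expression, so here and below they are not a matched background. CCAAT was present in 26 of the 61 windows (42.6%), against 37.4% of all. CHR was present in 7 (11.5%), against 17.9%, and an E2F form in 5 (8.2%), against 2.26%. A full p53 response element was found in 0 of the 61 and in 24 of all windows (0.0731%). Full means both half-sites matching RRRCWWGYYY in every letter, at most 13 bases apart (R is A or G, W is A or T, Y is C or T). Such matches were so rare among all windows that 0 of 61 says nothing about p53 sites in these genes. Among windows of genes called higher, 16 of 36 held CCAAT, 6 of 36 CHR and 1 of 36 an E2F form. Among those of genes called lower, the numbers were 4 of 11, 0 of 11 and 1 of 11. These matches describe letters in a 300-base window and do not show binding. For Jarid2, Cbx7 and Setd5 the window lies more than 1000 bases from the 5′ end of the deposited gene.

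PRC2 changed unevenly among its subunits: 5 of 7 genes rose, none fell, and 2 were not called. Of all protein-coding genes tested, 38.3% were higher and 34.7% lower. Eed, whose product binds methylated H3K27 and stimulates the enzyme, lies on chromosome 7 (mm10, 89954654 to 89980983, minus strand; ENSMUSG00000030619). Eed held 47.4, 48.0 and 47.1 FPKM in WT and 64.7, 65.9 and 63.7 FPKM in p53-deficient cells, so each p53-deficient library was above each WT library. The means were 47.5 ± 0.431 and 64.8 ± 1.08 FPKM (SD, n = 3 each), giving a log2 fold change of 0.44 and an SE of 0.0223 (limma adjusted p = 6.89e-06).

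Ezh2, the main H3K27 methyltransferase of stem cells (chromosome 6, 47530139 to 47595341, minus strand), held 23.6, 22.8 and 23.7 FPKM in WT and 27.9, 29.5 and 28.1 FPKM in p53-deficient cells. With no overlap between the groups, Ezh2 rose by a log2 fold change of 0.28 and an SE of 0.0314 (limma adjusted p = 0.000284). Ezh1, its paralog, was 3.81 ± 0.0163 and 4.26 ± 0.232 FPKM, a log2 fold change of 0.13 (limma adjusted p = 0.0447). The Ezh1 call was lost in 9 alternatives, among them any WT library or p53-deficient replicate 1 or 3 left out (limma adjusted p from 0.0970 to 0.123). Suz12, which holds the complex together (chromosome 11, 79993106 to 80034123, plus strand), was not called. It held 68.2, 67.3 and 69.6 FPKM in WT and 64.6, 66.9 and 65.7 FPKM in p53-deficient cells. No p53-deficient value reached the WT range, yet the log2 fold change of -0.056 and an SE of 0.0242 did not pass (limma adjusted p = 0.0813). With median ratio scaling it was -0.15 (limma adjusted p = 0.00193) and with quantile normalization -0.13 (limma adjusted p = 0.00544), and with voom weights on rebuilt reads -0.080 (limma adjusted p = 0.00978), so it was called lower in these 3 settings.

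Among the proteins that bring PRC2 to its sites, Jarid2 rose most. Jarid2, which binds nucleosomes carrying PRC1's mark (chromosome 13, 44729474 to 44921643, plus strand; ENSMUSG00000038518), held 29.5, 29.6 and 29.6 FPKM in WT and 41.4, 42.7 and 42.7 FPKM in p53-deficient cells. The groups lay far apart relative to their spread, with a log2 fold change of 0.50 and SE 0.0228 (limma adjusted p = 4.21e-06). Mtf2, a Polycomb-like protein that binds unmethylated CpG-rich DNA, held 57.7, 57.4 and 56.5 FPKM in WT and 59.6, 61.2 and 61.6 FPKM in p53-deficient cells. The Mtf2 groups did not overlap, with a log2 fold change of 0.086 and SE 0.0229 (limma adjusted p = 0.0149). That direction turned with median ratio scaling (-0.012) and quantile normalization (-0.016), and the call was also lost without WT replicate 3 (limma adjusted p = 0.0565). Mtf2 shares 6.93% of its exon length with Tmed5 on the opposite strand. Its relative Phf19 was 0.792 ± 0.0708 and 0.802 ± 0.0658 FPKM and was not called (limma adjusted p = 0.928).

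Ratios between subunits within a library do not depend on its scaling. They were computed after the values were seen, and each had the smallest exact permutation p that 3 against 3 libraries allow, 0.1 (two-sided). Eed per Suz12 was 0.695 ± 0.0175 in WT and 0.986 ± 0.0159 in p53-deficient cells (SD, n = 3 per group). Ezh1 and Ezh2 together per Suz12 was 0.397 ± 0.00410 and 0.498 ± 0.00242. Jarid2 per Mtf2 was 0.516 ± 0.00675 and 0.696 ± 0.00292. In each of these ratios every p53-deficient library was above every WT library.

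PRC1 genes moved in both directions: 7 of 15 rose (46.7%), 3 fell (20%) and 5 were not called. Of protein-coding genes tested 38.3% were higher and 34.7% lower. Together 66.7% of the PRC1 genes were called, against 73.0% of protein-coding ones. Of the catalytic RING subunits Rnf2 rose and Ring1 was not called. Rnf2 (RING1B), the more abundant H2A ubiquitin ligase (chromosome 1, 151458004 to 151500955, minus strand; ENSMUSG00000026484), held 19.7, 19.4 and 19.5 FPKM in WT and 30.0, 30.0 and 30.9 FPKM in p53-deficient cells. Each p53-deficient library was well above all WT libraries. Rnf2 rose from a mean of 19.5 ± 0.131 to 30.3 ± 0.552 FPKM, a log2 fold change of 0.61 and an SE of 0.0244 (limma adjusted p = 2.45e-06). Ring1, its paralog, was 3.15 ± 0.435 and 2.55 ± 0.155 FPKM, a log2 fold change of -0.22 that did not pass (limma adjusted p = 0.0527). It was called lower with median ratio scaling (limma adjusted p = 0.0192), with weights on rebuilt reads (limma adjusted p = 0.0229) and without WT replicate 3 (limma adjusted p = 0.0340), but not with quantile normalization (-0.12, limma adjusted p = 0.258). Of the summed FPKM of both, Rnf2 made up 86.1% in WT and 92.2% in p53-deficient cells, and Ring1 13.9% ± 1.70 and 7.75% ± 0.357, with no overlap between groups (exact permutation p = 0.1, the smallest possible).

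The PCGF proteins define PRC1 subtypes. Pcgf6, part of the variant complex that represses germ cell genes in stem cells, was the most abundant, with 54.1, 52.6 and 53.3 FPKM in WT and 47.8, 45.7 and 48.8 FPKM in p53-deficient cells. It was lower in every p53-deficient library, with a log2 fold change of -0.17 and SE 0.0302 (limma adjusted p = 0.00272), and -0.26 with median ratio scaling. Pcgf3 fell further, from 10.0 ± 0.188 to 6.86 ± 0.125 FPKM, a log2 fold change of -0.49 (limma adjusted p = 2.12e-05). In the other direction, Pcgf2 (MEL18), of canonical PRC1, rose from 20.7 ± 0.585 to 24.0 ± 1.53 FPKM (limma adjusted p = 0.00997), a call lost under both scaling alternatives. Pcgf1, of the variant complex that holds KDM2B, rose from 5.33 ± 0.640 to 6.94 ± 0.627 FPKM (limma adjusted p = 0.0159), and the call was lost without p53-deficient replicate 1 or 3 (limma adjusted p = 0.0501 and 0.0525). Pcgf5 was 1.35 ± 0.158 and 1.73 ± 0.188 FPKM and did not pass (limma adjusted p = 0.0507), though it was called higher with quantile normalization (limma adjusted p = 0.0101) and with weights on rebuilt reads (limma adjusted p = 0.00140). As a share of all PCGF paralogs, with Bmi1 included, Pcgf6 went from 54.1% to 50.7% and Pcgf3 from 10.2% to 7.33%, while Pcgf2 went from 21.0% to 25.6%. In shares of rebuilt reads, which weight long transcripts more, the differences were -0.99 percentage points for Pcgf6 in place of -3.46, -7.21 for Pcgf3 in place of -2.85, and 5.63 for Pcgf2 in place of 4.55. Rnf2 per Pcgf6 was 0.366 ± 0.00246 in WT and 0.639 ± 0.0154 in p53-deficient cells.

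Of the CBX proteins that bind H3K27 methylation, the 3 most abundant, Cbx7, Cbx2 and Cbx6, rose. Cbx7, the main one in stem cells (chromosome 15, 79915807 to 79971119, minus strand; ENSMUSG00000053411), held 15.0, 15.5 and 15.2 FPKM in WT and 23.2, 23.2 and 23.5 FPKM in p53-deficient cells. The 2 sets of values did not overlap, with a log2 fold change of 0.58 and SE 0.0249 (limma adjusted p = 3.35e-06). Cbx2, which compacts chromatin and rises with differentiation (chromosome 11, 119022962 to 119031270, plus strand; ENSMUSG00000025577), held 8.31, 8.04 and 8.50 FPKM in WT and 12.5, 12.2 and 12.5 FPKM in p53-deficient cells. All p53-deficient libraries were higher, with a log2 fold change of 0.53 and SE 0.0323 (limma adjusted p = 1.56e-05). Cbx6 rose less, from 9.24 ± 0.0598 to 11.3 ± 0.316 FPKM (limma adjusted p = 0.000354). Cbx8 was 1.13 ± 0.104 and 1.27 ± 0.0613 FPKM and was not called (limma adjusted p = 0.255), except higher with quantile normalization (limma adjusted p = 0.0285). The summed level of Cbx2, Cbx6, Cbx7 and Cbx8 was 33.9 ± 0.328 and 48.3 ± 0.458 FPKM. Within it Cbx7 went from 45.0% ± 0.816 to 48.3% ± 0.189 and Cbx6 from 27.2% ± 0.118 to 23.4% ± 0.460.

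The PHC proteins, which polymerise and cluster canonical PRC1, split in direction. Phc1 held 35.0, 36.3 and 35.5 FPKM in WT and 40.7, 38.8 and 40.0 FPKM in p53-deficient cells. It was higher in every p53-deficient library, with a log2 fold change of 0.16 and SE 0.0277 (limma adjusted p = 0.00241), but under median ratio scaling and quantile normalization it was 0.059 and 0.064 and was not called (limma adjusted p = 0.0888 and 0.0712). Phc2 fell from 6.11 ± 0.0255 to 4.63 ± 0.295 FPKM, a log2 fold change of -0.34 (limma adjusted p = 0.000805). Phc3 was 2.17 and 2.01 FPKM and was not called (limma adjusted p = 0.224). It was called lower with median ratio scaling (limma adjusted p = 0.0483) and with weights on rebuilt reads (limma adjusted p = 0.0270), and its direction turned with quantile normalization (0.039). Phc1 made up 81.1% ± 0.219 of the PHC sum in WT and 85.7% ± 0.262 in p53-deficient cells.

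The HP1 proteins, which bind methylated H3K9, also exchanged shares. Cbx1 (HP1 beta) held 67.9, 64.3 and 65.5 FPKM in WT and 78.8, 81.0 and 77.7 FPKM in p53-deficient cells, and rose by a log2 fold change of 0.26 and an SE of 0.0292 (limma adjusted p = 0.000257). Cbx5 (HP1 alpha) held 48.3, 48.1 and 49.6 FPKM in WT and 39.4, 40.2 and 40.6 FPKM in p53-deficient cells, a log2 fold change of -0.27 and an SE of 0.0241 (limma adjusted p = 8.11e-05). Neither pair of groups overlapped. Cbx3 (HP1 gamma) was 29.2 and 29.4 FPKM and was not called (limma adjusted p = 0.738), but with a log2 fold change of -0.085 and -0.090 it was called lower under median ratio scaling and quantile normalization. The sum of the 3 was 143.7 and 148.7 FPKM. Cbx1 went from 45.8% ± 0.603 to 53.3% ± 0.477 of it and Cbx5 from 33.9% ± 0.729 to 26.9% ± 0.554, and Cbx1 per Cbx5 was 1.35 ± 0.0460 and 1.98 ± 0.0563.

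**Figure D2:**
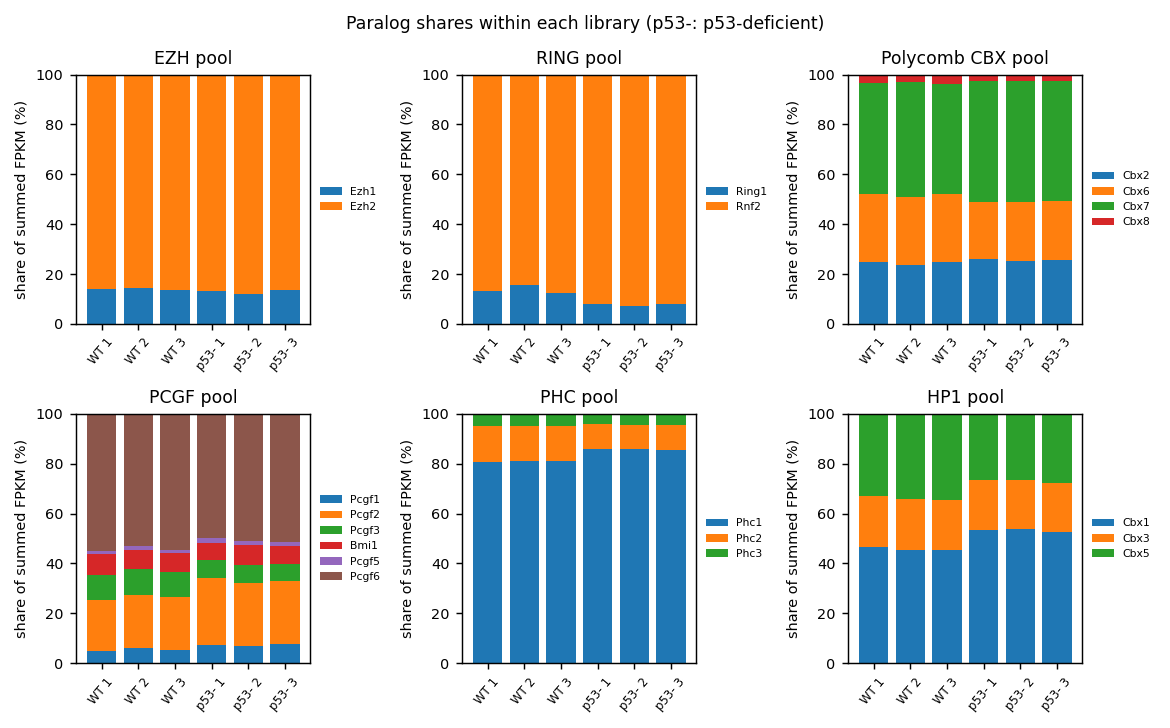
Share of summed FPKM (percent, vertical axis) that each paralog holds in each of the 6 libraries, 1 panel per family, with p53- standing for p53-deficient. Rnf2 takes a larger share of the RING pair in all 3 p53-deficient libraries (mean 92.2% against 86.1%), and Cbx1 a larger share of the HP1 genes (53.3% against 45.8%).

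All 6 H3K9 methyltransferases rose, with a median log2 fold change of 0.43, and 5 of them were also called higher under both scaling alternatives. Of all tested genes 35.3% were higher. Setdb1, which TRIM28 recruits to retroviral elements (chromosome 3, 95323525 to 95357202, minus strand; ENSMUSG00000015697), had the largest rise of the 74 genes. It held 15.8, 15.7 and 15.4 FPKM in WT and 30.5, 30.5 and 31.9 FPKM in p53-deficient cells. The lowest p53-deficient library was far above the highest WT library. Mean levels were 15.6 ± 0.207 and 31.0 ± 0.830 FPKM (SD, n = 3 per group), 98.0% higher in p53-deficient cells, with a log2 fold change of 0.94 and SE 0.0286 (limma adjusted p = 7.91e-07). Setdb1 per Trim28 was 0.0431 ± 0.000734 in WT and 0.0716 ± 0.00195 in p53-deficient cells.

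The SUV39H enzymes trimethylate H3K9 in pericentromeric heterochromatin. Suv39h1 (chromosome X, 8061171 to 8074760, minus strand; ENSMUSG00000039231) held 5.57, 5.24 and 6.11 FPKM in WT and 8.36, 8.24 and 8.67 FPKM in p53-deficient cells. Every p53-deficient library was above every WT library, with a log2 fold change of 0.51 and SE 0.0548 (limma adjusted p = 0.00022). Of its exon length 14.6% is shared with Gm14820 on the opposite strand, at a mean of 7.25 FPKM, and reads of the 2 cannot be told apart without strand. Suv39h2 rose from 6.0 ± 0.235 to 8.54 ± 0.513 FPKM (log2 fold change 0.45), with 8.10% of its exon length shared with Dclre1c on the opposite strand, and Setdb2 from 3.93 ± 0.179 to 5.53 ± 0.188 FPKM (0.41). The EHMT enzymes dimethylate H3K9 as a pair. Ehmt2 (G9a) held 23.1, 22.1 and 22.4 FPKM in WT and 25.6, 24.4 and 25.1 FPKM in p53-deficient cells, a log2 fold change of 0.15 and an SE of 0.0308 (limma adjusted p = 0.00531), and was 0.051 and 0.054 and not called under either scaling alternative (limma adjusted p = 0.167 and 0.147). Its partner Ehmt1 rose from 11.2 ± 0.202 to 14.1 ± 0.327 FPKM (log2 fold change 0.31).

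Among the 8 H3K4 methyltransferases 4 rose (50%), 3 fell (37.5%) and 1 was not called. For so few genes these shares lie near the 38.3% and 34.7% of protein-coding genes tested. Setd1b, the catalytic subunit of a COMPASS complex (chromosome 5, 123142193 to 123168629, plus strand; ENSMUSG00000038384), held 4.61, 4.77 and 4.61 FPKM in WT and 8.43, 8.69 and 9.76 FPKM in p53-deficient cells. All p53-deficient libraries were higher, by a log2 fold change of 0.81 and an SE of 0.0559 (limma adjusted p = 2.66e-05). Its paralog Setd1a rose from 6.63 ± 0.0459 to 8.06 ± 0.139 FPKM, a log2 fold change of 0.25 (limma adjusted p = 0.00048). Kmt2b (MLL2), needed for H3K4 methylation of bivalent promoters, was the most abundant of the 8, with 15.4, 15.9 and 16.0 FPKM in WT and 19.0, 18.6 and 18.8 FPKM in p53-deficient cells. Its groups did not overlap (log2 fold change 0.24, SE 0.0273, limma adjusted p = 0.000264). Kmt2a (MLL1) rose from 6.84 ± 0.337 to 9.84 ± 0.531 FPKM (log2 fold change 0.47).

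Of the enzymes of this group that fell, Setd7, a monomethyltransferase that also acts on proteins other than histones (chromosome 3, 51515319 to 51560879, minus strand; ENSMUSG00000037111), held 3.98, 3.95 and 4.34 FPKM in WT and 2.26, 2.28 and 2.53 FPKM in p53-deficient cells. Each p53-deficient library was lower, with a log2 fold change of -0.60 and SE 0.0570 (limma adjusted p = 0.000117). Kmt2e (MLL5), whose SET domain is thought to be inactive (chromosome 5, 23434441 to 23504235, plus strand; ENSMUSG00000029004), held 3.40, 3.43 and 3.28 FPKM in WT and 1.76, 2.01 and 2.02 FPKM in p53-deficient cells. It too was lower in all 3, with a log2 fold change of -0.58 and SE 0.0556 (limma adjusted p = 0.000125), and 9.31% of its exon length is shared with Srpk2 on the opposite strand. For the enhancer enzymes the differences were small. Kmt2c (MLL3) was 5.68 ± 0.324 and 4.98 ± 0.276 FPKM (log2 fold change -0.16, limma adjusted p = 0.0400). Its call was lost in 8 alternatives, among them WT replicate 1 or 3 or p53-deficient replicate 1 or 3 left out (limma adjusted p from 0.0660 to 0.120). Kmt2d (MLL4) was 7.57 ± 0.332 and 8.27 ± 0.439 FPKM and was not called (limma adjusted p = 0.0817), except higher with weights on rebuilt reads (limma adjusted p = 0.0196).

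The H3K36 methyltransferases moved in both directions. Setd2, the trimethylating enzyme that travels with RNA polymerase II, rose from 12.9 ± 0.613 to 17.3 ± 0.632 FPKM, a log2 fold change of 0.40 (limma adjusted p = 0.00025). Nsd2, a dimethylating enzyme, fell from 4.21 ± 0.102 to 2.82 ± 0.0555 FPKM, a log2 fold change of -0.45 (limma adjusted p = 0.000106), and its relative Nsd3 fell from 3.60 to 3.11 FPKM (-0.16). The Nsd3 call was lost without WT replicate 2 or p53-deficient replicate 1 (limma adjusted p = 0.0661 and 0.0531). Nsd1 held 16.7, 16.1 and 16.8 FPKM in WT and 17.1, 18.4 and 18.2 FPKM in p53-deficient cells. Its groups did not overlap, but the log2 fold change of 0.11 and an SE of 0.0359 (limma adjusted p = 0.0306) lost its call in 9 alternatives. These include leaving out any library but p53-deficient replicate 1 (limma adjusted p from 0.0513 to 0.0982). Among the H4K20 enzymes, Kmt5a, the cell cycle-linked monomethyltransferase, held 29.2, 28.6 and 28.2 FPKM in WT and 33.8, 32.7 and 34.4 FPKM in p53-deficient cells. It was higher in every p53-deficient library (log2 fold change 0.22, SE 0.0280, limma adjusted p = 0.000442), and by 0.13 under either scaling alternative. Kmt5b rose from 4.14 to 5.14 FPKM (0.26), while its paralog Kmt5c fell from 22.1 to 19.8 FPKM (-0.16).

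Of 8 arginine methyltransferases 6 rose (75%), 1 fell (12.5%) and 1 was not called, beside 38.3% and 34.7% of protein-coding genes tested. Prmt1, the main asymmetric dimethylating enzyme and the most abundant of the group, held 104, 103 and 103 FPKM in WT and 129.6, 125 and 124 FPKM in p53-deficient cells. All p53-deficient values exceeded those of WT (log2 fold change 0.28, SE 0.0244, limma adjusted p = 7.58e-05). Prmt5, the main symmetric dimethylating enzyme, rose from 49.4 ± 0.852 to 64.9 ± 1.87 FPKM, a log2 fold change of 0.39 (limma adjusted p = 3.72e-05). Prmt6, which methylates arginine 2 of histone H3 (chromosome 3, 110246109 to 110250998, minus strand; ENSMUSG00000049300), held 3.77, 3.61 and 3.84 FPKM in WT and 5.97, 7.55 and 5.21 FPKM in p53-deficient cells. The p53-deficient libraries were all higher and spread more widely than WT, with a log2 fold change of 0.60 and SE 0.112 (limma adjusted p = 0.00309). Prmt9, Prmt7 and Prmt3 rose by log2 fold changes of 0.39, 0.18 and 0.17, the last 2 not called after median ratio scaling, and Prmt2 was not called.

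Prmt8, a membrane-anchored relative of PRMT1 known from neurons, had the largest fall (chromosome 6, 127689011 to 127769472, minus strand; ENSMUSG00000030350). It held 1.30, 1.10 and 1.21 FPKM in WT and 0.0698, 0.0635 and 0.208 FPKM in p53-deficient cells. These values rest on 61, 59 and 68 reads in WT and on 4, 2 and 10 in p53-deficient libraries, and the groups did not overlap. The log2 fold change of FPKM + 1 was -0.99 with SE 0.0865 (limma adjusted p = 8.15e-05), and -2.67 with a pseudocount of 0.1 and -3.45 with weights on rebuilt reads. Adjusted for depth, reads in p53-deficient cells were 10.4 times fewer, with a 95% exact binomial interval from 6.24 to 18.6 that covers counting error only.

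Of the 4 other SETD genes 3 rose, where 38.3% of protein-coding genes tested were higher. Setd3, the actin histidine methyltransferase, held 15.5, 14.3 and 14.2 FPKM in WT and 17.7, 18.2 and 18.3 FPKM in p53-deficient cells. The groups did not overlap (log2 fold change 0.29, SE 0.0393, limma adjusted p = 0.000695). Setd4 rose from 2.25 ± 0.161 to 3.37 ± 0.195 FPKM (0.43) and Setd6, which methylates the NF-kappaB subunit RELA, from 13.6 ± 0.555 to 16.4 ± 0.706 FPKM (0.25). Setd5 was 12.4 ± 0.0807 and 11.8 ± 0.283 FPKM and was not called (limma adjusted p = 0.0871), but was called lower under both scaling alternatives, with weights on rebuilt reads and without p53-deficient replicate 2.

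**Figure D3:**
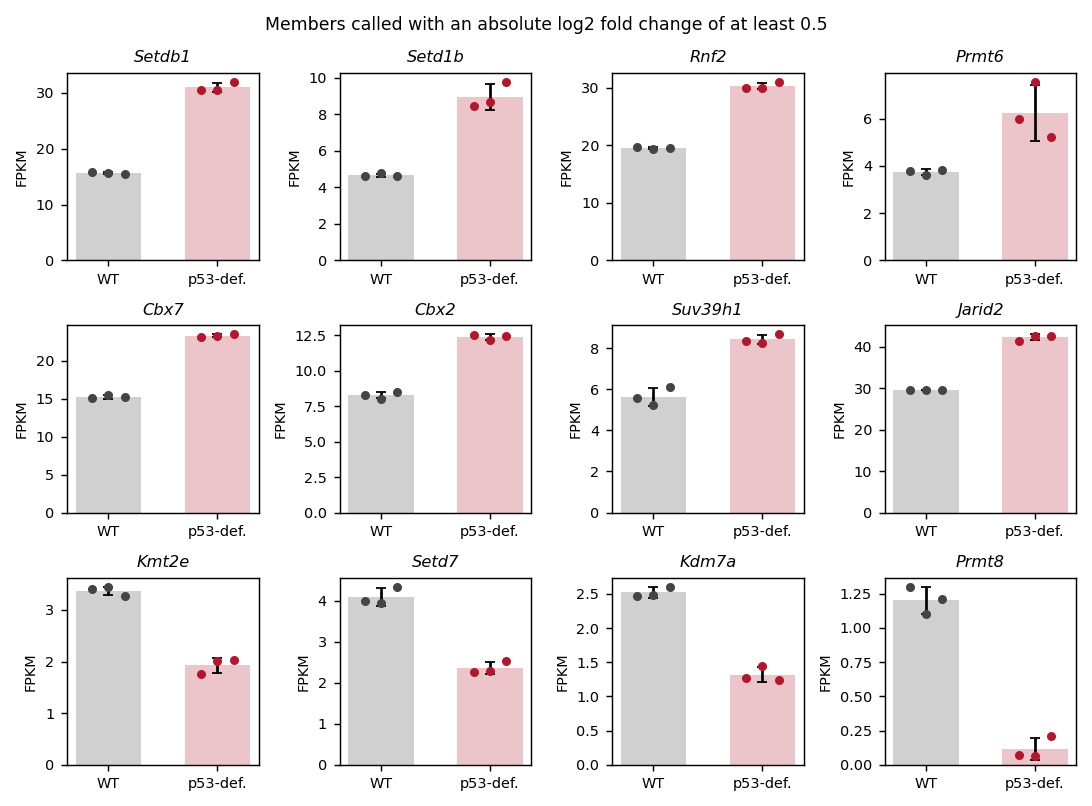
FPKM per library (vertical axes, each from 0) for the 12 genes called with an absolute log2 fold change of at least 0.5. Points are the 3 libraries of each group, bars the group mean and error bars the SD. The groups do not overlap in any panel, and the p53-deficient libraries of Prmt6 (5.21 to 7.55 FPKM) spread more than those of Rnf2 (30.0 to 30.9 FPKM).

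Among the demethylases, 8 of 16 tested genes rose (50%), 4 fell (25%) and 4 were not called, beside 38.3% higher and 34.7% lower of all protein-coding genes tested. The H3K4 demethylases made up 4 of those that rose. Kdm5c, an X-linked enzyme that removes methyl groups from trimethylated H3K4, was the most abundant, with 42.8, 42.7 and 43.3 FPKM in WT and 51.2, 52.6 and 52.2 FPKM in p53-deficient cells. Every p53-deficient library was higher (log2 fold change 0.27, SE 0.0216, limma adjusted p = 5.21e-05). Kdm1a (LSD1), which acts within the CoREST and NuRD complexes, rose from 37.9 ± 0.460 to 52.2 ± 0.572 FPKM, a log2 fold change of 0.45 (limma adjusted p = 5.6e-06). Kdm1b and Kdm5a rose by 0.22 and 0.15, Kdm5a without a call after median ratio scaling, and Kdm5b was 20.1 and 20.5 FPKM (limma adjusted p = 0.353). Kdm1b shares 9.19% of its exon length with Dek on the opposite strand, which at a mean of 82.9 FPKM is far more abundant than Kdm1b itself (3.53 and 4.27 FPKM). Of the H3K36 demethylases, Kdm2b, which brings variant PRC1 to CpG islands, held 9.62, 9.98 and 9.03 FPKM in WT and 9.10, 9.82 and 9.50 FPKM in p53-deficient cells. These values overlapped and the gene was not called (limma adjusted p = 0.874). It overlaps Rnf34 on the opposite strand over 7.60% of its exon length, and shares 615 bases of identical sequence with Gm12397, at a mean of 4.74 FPKM. Kdm2a rose from 7.60 to 8.89 FPKM (0.20) and Kdm8 from 2.57 to 3.61 FPKM (0.36).

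Of 6 H3K9 demethylases tested, 3 fell, 1 rose and 2 were not called, with a median log2 fold change of -0.14, where 31.3% of all tested genes were lower. Their difference from the H3K9 methyltransferases was not tested. Kdm4a, which also acts on H3K36, held 24.0, 24.9 and 25.7 FPKM in WT and 20.5, 20.6 and 19.6 FPKM in p53-deficient cells. It was lower in each of them, with a log2 fold change of -0.29 and SE 0.0355 (limma adjusted p = 0.000427). Its paralog Kdm4c fell from 12.5 ± 0.0869 to 9.62 ± 0.313 FPKM (-0.34). Kdm7a, which demethylates H3K9 and H3K27 (chromosome 6, 39136623 to 39206789, minus strand; ENSMUSG00000042599), held 2.47, 2.49 and 2.61 FPKM in WT and 1.27, 1.45 and 1.23 FPKM in p53-deficient cells. The groups did not overlap (log2 fold change -0.60, SE 0.0590, limma adjusted p = 0.000134), and it was -0.98 with weights on rebuilt reads. Kdm3b rose from 10.6 ± 0.0946 to 14.3 ± 0.326 FPKM (0.40), while Kdm3a and Kdm4b were not called (limma adjusted p = 0.135 and 0.982).

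The H3K27 demethylases, which oppose PRC2, differed in direction. Kdm6a (UTX), on the X chromosome, held 14.8, 14.0 and 14.7 FPKM in WT and 15.3, 17.5 and 17.2 FPKM in p53-deficient cells. The lowest p53-deficient library lay just above the WT range, with a log2 fold change of 0.19 and SE 0.0542 (limma adjusted p = 0.0199). The Kdm6a call was lost in 6 alternatives, among them leaving out WT replicate 2 (limma adjusted p = 0.0665) or p53-deficient replicate 2 or 3 (limma adjusted p = 0.0567 and 0.0637). Kdm6b (JMJD3) held 12.4, 11.8 and 12.9 FPKM in WT and 9.77, 9.78 and 9.74 FPKM in p53-deficient cells. It fell in all 3, with a log2 fold change of -0.31 and SE 0.0361 (limma adjusted p = 0.000312).

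Partner genes outside the 75 were followed in 5 lists. Of 13 tested partners of COMPASS complexes 11 rose and 1 fell, with a median log2 fold change of 0.34, beside 35.3% higher and 31.3% lower of all tested genes and a median of 0.028. Men1 (menin), which holds KMT2A and KMT2B, rose from 16.9 ± 0.420 to 28.7 ± 1.75 FPKM (0.73). Dpy30, a core subunit of all these complexes, rose from 82.2 ± 3.34 to 137 ± 5.92 FPKM (0.73), and Hcfc1, a subunit of several of them, from 58.4 ± 1.42 to 91.3 ± 3.05 FPKM (0.64). Of 14 heterochromatin partners 13 (92.9%) rose and none fell, with a median of 0.33. They include Cdyl2, a chromodomain protein, from 11.4 ± 1.07 to 26.7 ± 0.337 FPKM (1.17), Daxx, the histone H3.3 chaperone, from 24.0 ± 0.603 to 43.4 ± 0.797 FPKM (0.83), and Morc2a, a HUSH-associated ATPase, from 16.9 ± 0.767 to 25.4 ± 0.140 FPKM (0.56).

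Of the Polycomb partners 12 of 26 tested were higher (46.2%) and 7 lower (26.9%), with a median of 0.029, which lies near the 35.3%, 31.3% and 0.028 of all tested genes. Bcorl1, of the PCGF1 complex, fell from 4.70 ± 0.103 to 2.41 ± 0.172 FPKM (-0.74). Yy1, a DNA-binding factor linked to Polycomb, rose from 19.1 ± 0.510 to 28.6 ± 0.422 FPKM (0.56), and Scml2 from 7.23 ± 0.115 to 11.1 ± 0.835 FPKM (0.56). Of the other histone methyltransferases 7 of 13 tested rose and 1 fell. Smyd1, the muscle enzyme, rose from 0.212 ± 0.0889 to 3.93 ± 0.121 FPKM (2.02), Prdm16 from 0.331 ± 0.0573 to 1.03 ± 0.0421 FPKM (0.61), and Smyd2 fell from 11.8 ± 0.404 to 4.39 ± 0.535 FPKM (-1.25). Of 8 other demethylases 5 rose and 1 fell. Riox2 rose from 5.93 ± 0.484 to 11.3 ± 0.287 FPKM (0.83), Jmjd1c from 7.99 ± 0.207 to 11.2 ± 0.371 FPKM (0.44), and Phf2 fell from 4.96 ± 0.321 to 3.11 ± 0.0581 FPKM (-0.53).

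**Figure D4:**
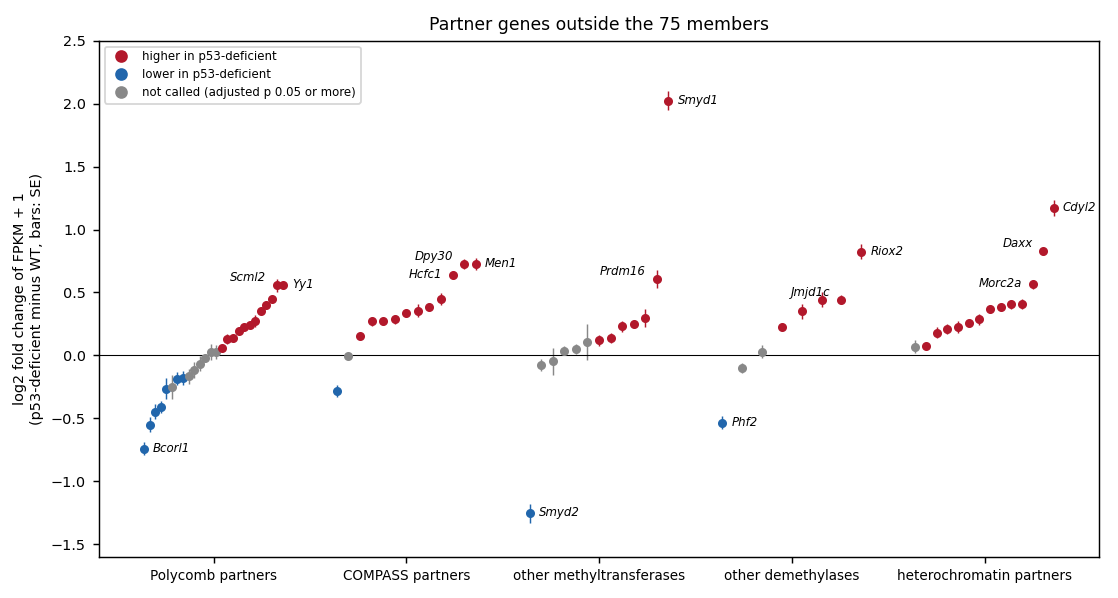
Log2 fold change of FPKM + 1 between p53-deficient and WT cells (vertical axis) for partner genes outside the 75, in 5 lists ordered by change within each. Points are limma estimates, bars their SE, and colours mark genes called higher (red), lower (blue) or neither (grey). All but 1 of the 14 heterochromatin partners are called higher, and Smyd1 (2.02) and Smyd2 (-1.25) lie farthest from 0.

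Most of the listed Polycomb targets, developmental genes that PRC2 and PRC1 hold silent in stem cells, were too low to test: 10 of 38 reached a mean of 0.5 FPKM. Of these 4 rose and 5 fell, with a median log2 fold change of -0.15, beside 35.3% higher and 31.3% lower of all tested genes. Cdkn2b, a cell cycle inhibitor, fell from 16.6 ± 0.448 to 3.73 ± 0.311 FPKM (-1.90). T (brachyury), a mesoderm factor, rose from 0.164 ± 0.0860 to 1.51 ± 0.143 FPKM (1.11), and Gata6, a primitive endoderm factor, fell from 0.992 ± 0.0994 to 0.152 ± 0.0529 FPKM (-0.79). With no filter on low values 11 of the 38 listed targets were lower, beside 17.5% of all genes in that setting. Without WT replicate 3 the number lower was 3, beside 28.7% of all genes tested. Histone marks and Polycomb binding were not measured, so these levels say nothing of either.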

How the data were processed

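Poly(A) RNA was purified with poly-T beads and made into libraries with the NEBNext Ultra kit, per the labels' protocols, which do not say that strand was kept. The authors deposited a table of FPKM by gene. HISAT2 2.0.5, featureCounts 1.5.0-p3 and build mm10 are named in the submitters' processing notes, without their roles. The counting of reads that match several places is not stated in the labels. The deposited gene length, in bases, times FPKM gave whole reads for 100% of values above 0 (tolerance 0.01 of a read up to 1000 reads, in proportion above). Symbols that had become dates, 27 in all, were restored from gene identifiers.

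The groups (n = 3 each) were compared on log2(FPKM + 1) in limma 3.58.1 (R 4.3.3), with a variance trend, for 15144 genes of mean FPKM at least 0.5. P-values were two-sided and Benjamini-Hochberg adjusted over all of them, and genes were called under 0.05. Fold changes on this scale understate those of low genes. Errors beside means are SD. Shares and ratios were tested by exact permutation, which cannot go below 0.1. Copies were sought with BLAST+ 2.17.0 (at least 95% identity over 50% of the shorter transcript and 100 bases). Figures were drawn with matplotlib 3.10.9. The fit was tested on simulated reads.

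The genes, lists, roles and alternatives were chosen with earlier results of these data known. Values in every library are given for genes with an absolute log2 fold change of at least 0.5 that were called and for the most abundant gene of each role, and of each partner list the 3 largest called changes are named. Further genes were picked once their values had been seen. The alternative settings changed the pseudocount (0.1), the filter (none, or mean FPKM 5), the scaling (median ratio or quantile), the fit (voom weights on rebuilt reads, or a replicate block) or the threshold (0.01), or left out 1 library. Counts cover all 75 genes, and the values of 1 of them are not reported here.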

Additional observations from a re-analysis of the deposited data

How the results depend on the processing

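With 1 library left out, 40 to 42 of the 74 genes were called higher and 13 to 16 lower. Of all tested genes, 32.7% to 33.7% were then higher and 28.3% to 30.5% lower. The counts for the 74 were 44 and 15 with a pseudocount of 0.1, and 43 and 14 of 75 tested without a filter. They were 37 and 9 of 54 tested at a mean FPKM of at least 5, and 40 and 16 after quantile normalization. With voom weights they were 46 and 19, and 38 and 12 at an adjusted p under 0.01. The shares of all tested genes, higher and lower, were 35.1% and 31.1% with that pseudocount and 17.0% and 17.5% without a filter. They were 36.7% and 29.8% after quantile normalization, and 35.5% and 33.8% with voom weights. At the stricter threshold 4284 and 3913 of 15144 genes were higher and lower. At a mean of at least 5 FPKM, 3676 of all 7752 genes were higher (47.4%) and 2268 lower (29.3%). Their median log2 fold change was 0.097. The median log2 fold change was 0.21 over those 54 genes, and over the 74 it was 0.089 after median ratio scaling and 0.15 after quantile normalization, and from 0.16 (without p53-deficient replicate 1) to 0.19 with 1 library left out. After median ratio scaling, 40 partner genes were higher in place of 48, and 16 were lower in place of 10. With the replicate number as a block, 42 of the 74 genes were higher and 14 lower, beside 34.3% and 30.2% of all tested genes. Ezh1, Kmt2c and Nsd1 then lost their calls. Deviations of same-numbered libraries correlated at -0.033, 0.014 and 0.0056 over all tested genes, so pairing by number was not seen. A pairing that touches few genes could be missed this way.

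Direction turned in 23 cases among the genes reported, and of these genes Mtf2 alone was called in the main comparison. After median ratio scaling the log2 fold changes were -0.085 for Cbx3, -0.036 for Kdm3a, -0.085 for Kdm4b, -0.067 for Kdm5b, -0.012 for Mtf2 and -0.036 for Phf19. After quantile normalization they were -0.090 for Cbx3, -0.022 for Kdm3a, -0.052 for Kdm5b, -0.016 for Mtf2, 0.039 for Phc3 and 0.030 for Prmt2. With voom weights they were -0.0086 for Cbx3, -0.011 for Kdm4b and -0.0025 for Phf19. With 1 library left out, they ranged from -0.0033 to 0.025 for Cbx3, -0.045 to 0.020 for Kdm2b, -0.027 to 0.018 for Kdm4b and -0.024 to 0.031 for Phf19. The cause was not tested. In shares of rebuilt reads in place of FPKM, the Cbx3 share of HP1 genes turned from -0.52 to 0.58 percentage points, with overlapping groups. Depth limits Prmt8 and Kdm4d most, at 2 to 68 and 0 to 7 reads per library.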
